A study of Mus musculus with 6 samples.

Results

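Ptprc encodes CD45, the receptor tyrosine phosphatase carried by nearly all nucleated blood cells, and it was described here by transcript together with Hnrnpll, Hnrnpl, Ptbp1 and Sfpq, which encode RNA-binding proteins known to act on its alternative exons. The members were taken by gene symbol from a deposited table of transcripts, and all transcript rows of each gene were used. They come to 5 genes of 19977 and 26 transcript rows of 66712, of which 8 belong to Ptprc. The name Psf1 was also on the list but is no gene symbol. It is a synonym of both Gins1, a DNA replication gene, and Tap1, a peptide transporter gene, while the splicing factor known as PSF is Sfpq, so Gins1 and Tap1 are given as values only.

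The old group held 3 libraries of CD4+ T cells from wild type C57BL/6 mice aged 11 months, and the young group held 3 from mice aged 6 to 8 weeks. Spleen and lymph nodes were the source in both groups. Flow cytometry isolated the CD4+ cells, and anti-CD3 plus anti-CD28 antibodies, which trigger the receptor and its costimulator, were then applied for 6 hours. All 6 libraries are therefore of stimulated cells, and no unstimulated library was compared. The labels do not say that the libraries came from separate animals, so p-values measure only the spread between these libraries. Expected counts, the estimated reads per transcript, summed to between 16932551 and 18708205 per library.

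Young replicate 1 stood apart from the rest. Its log2 expression correlated with the other libraries at r between 0.909 and 0.931 across genes, whereas young replicates 2 and 3 correlated at 0.980 and the old libraries among themselves at 0.974 to 0.985. Values without this library are given beside the results that it moves most. The summed level of 8 T cell markers was 3497 to 4311 CPM (counts scaled to a common library size) in old libraries and 3168 to 3626 CPM in young libraries. Markers of B cells summed to 19.6 to 30.7 CPM in old and 15.4 to 43.3 CPM in young libraries, those of myeloid cells to 16.2 to 32.7 CPM in old and 29.3 to 53.6 CPM in young, and those of CD8 T and NK cells to 47.7 to 55.9 CPM in old and 68.2 to 129 CPM in young. Most of the CD8 T and NK sum was Eomes, at 29.6 to 36.9 CPM in old and 47.4 to 99.3 CPM in young libraries. Cd8b1 was also lower in old libraries, at 9.14 to 12.5 CPM against 14.5 to 25.9 CPM in young, while Cd8a overlapped. Gzma lay the other way, at 2.12 to 4.95 CPM in old and 0.288 to 1.38 CPM in young. These genes were singled out after their values were seen.

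CD45 removes an inhibitory phosphate from the kinases Lck and Fyn and so sets the threshold of T cell receptor signalling. Its outer part is variable, because exons A, B and C can each be kept or skipped. Naive T cells carry longer forms, and activated and memory T cells shift towards RO, the form without these exons. In T cells hnRNPLL promotes skipping, hnRNP L represses the variable exons through silencer elements, and PTB (Ptbp1) and PSF (Sfpq) are further repressors described in human T cells. Both hnRNP L and hnRNPLL bind RNA rich in C and A.

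Exons A, B and C are shown because their skipping defines the RO form, and the exon after them because the curated Ptprc rows of the table differ in it. They are the GENCODE M21 exons on GRCm38, read 5′ to 3′ on the transcribed (minus) strand of chromosome 1, and capitals mark each CACA. Exon A is exon 4 of 33 in the full-length transcript NM_001111316.2, which was not analysed here because it had no row. It spans chr1:138122456-138122584. Exon B spans chr1:138120020-138120166, exon C spans chr1:138117754-138117894, and the exon after C, exon 7, spans chr1:138116954-138117025. All 4 are internal coding exons of Ptprc (gene 19264, chromosome 1, 138062859 to 138175756).
Exon A: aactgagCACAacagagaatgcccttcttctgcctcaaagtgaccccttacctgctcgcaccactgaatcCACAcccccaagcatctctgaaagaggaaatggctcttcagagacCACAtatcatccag
Exon B: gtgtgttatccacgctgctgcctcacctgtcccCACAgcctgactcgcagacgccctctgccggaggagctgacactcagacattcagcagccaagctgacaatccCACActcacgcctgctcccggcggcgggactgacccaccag
Exon C: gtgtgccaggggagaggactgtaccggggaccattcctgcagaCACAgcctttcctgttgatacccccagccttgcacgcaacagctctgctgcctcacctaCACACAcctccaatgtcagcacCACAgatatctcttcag
Exon 7: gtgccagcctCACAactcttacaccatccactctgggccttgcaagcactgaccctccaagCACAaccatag

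Exons A, B and C measure 129, 147 and 141 bases, 417 bases together, and exon 7 measures 72 bases. CACA, searched on the transcribed strand only and allowed to overlap itself, occurred 3 times in exon A, 2 times in exon B, 4 times in exon C and 2 times in exon 7. The comparison was with internal exons of the same length in protein-coding transcripts, coding or not. Of these, 46.5% held CACA at least once for exon A, 51.4% for exon B, 49.8% for exon C and 31.2% for exon 7. As many occurrences were held by 4.20%, 16.4%, 1.58% and 5.35% of those exons in the same order. A match is a description of the sequence and not a binding site.

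The 2 curated Ptprc rows both lack A, B and C. NM_011210.4 keeps exon 7, and NM_001268286.1 skips it as well, so the rows differ mainly by the 72 bases shown above. The exon makeup of the predicted rows, whose identifiers begin with XM, is not given in the sources used here. XM_006529257.1 and XM_006529261.3 were at 0 in all 6 libraries, so 6 of the 8 Ptprc rows carried counts. The transcript estimates come from reads that several rows share, and RSEM divides such reads between them.

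**Figure D1:**
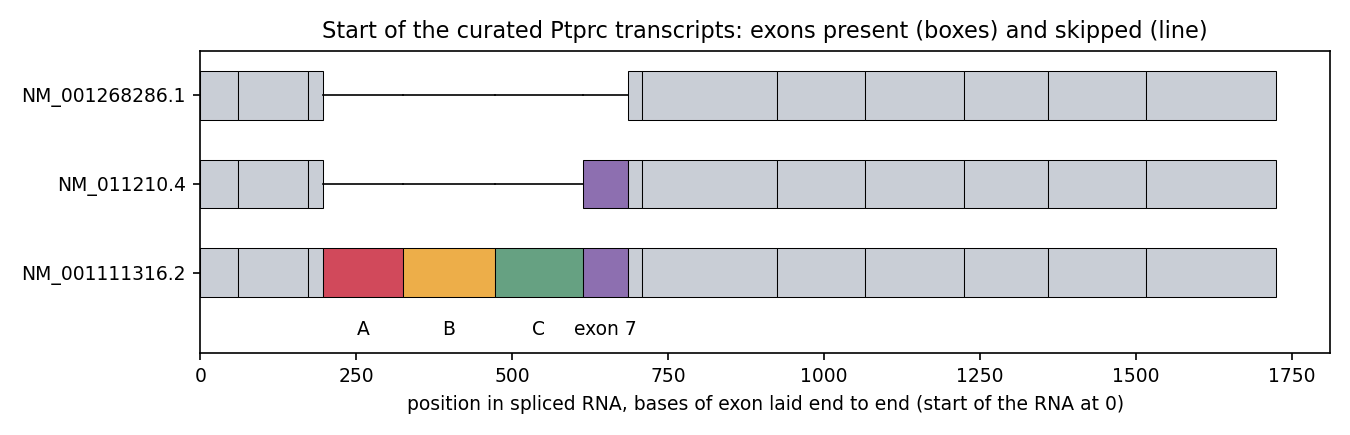
First exons of 3 curated Ptprc transcripts, drawn to scale in bases of spliced RNA and aligned on NM_001111316.2, whose exon 1 length (60 bases) is used for all 3. NM_011210.4 skips the 417 bases of A, B and C, and NM_001268286.1 also skips the 72 bases of exon 7.

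The gene's total did not separate the ages, and the share of its shortest curated form was higher in every old library than in any young one. Ptprc had 1546, 1568 and 1395 CPM in old libraries, against 1681, 1416 and 1571 CPM in young libraries, after scaling each library by its TMM factor. The groups overlapped, with means of 1503 ± 94.2 CPM in old and 1556 ± 133 CPM in young (SD, n = 3 each). The log2 difference, old minus young, was -0.05 ± 0.17 (SE), with an adjusted p of 0.965 by the quasi-likelihood test of edgeR, adjusted by Benjamini-Hochberg over 10509 genes. In bulk RNA, fewer cells of a type and less RNA per cell cannot be told apart.

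NM_001268286.1, the row without A, B, C and exon 7, held 1.67%, 1.59% and 1.15% of the Ptprc counts in old libraries, against 0.211%, 0.361% and 0.610% in young libraries. All 3 old values lay above all 3 young values. The means were 1.47 ± 0.282% in old and 0.394 ± 0.202% in young (SD, n = 3 each), a difference of 1.07 percentage points. The two-sided exact permutation p was 0.1, the smallest that 3 libraries against 3 can give. These shares rest on 475, 464 and 294 expected counts in old libraries and on 61.6, 95.6 and 167 in young libraries.

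By level, NM_001268286.1 had 4.99, 4.84 and 2.99 FPKM (fragments per kilobase, scaled to library size) in old libraries, against 0.700, 0.980 and 1.76 FPKM in young libraries. The groups did not overlap, and the young library nearest to the old ones was replicate 3. The log2 difference in counts was 1.88 ± 0.48 (SE), with an unadjusted p of 0.00774 and an adjusted p of 0.671 by edgeR over 20128 transcripts, so it was not called. DESeq2 gave a log2 difference of 1.87 ± 0.54 (SE) with an adjusted p of 0.0356, which passed, as did 1.28% of all transcripts in the direction higher in old, and the adjusted p ran from 0.0356 to 1.0 over the alternatives tried. On counts simulated with the spread of these libraries, most transcript calls of DESeq2 were false and edgeR recovered none of the changed transcripts, so neither the pass nor the missing call is firm. Without young replicate 1 the edgeR difference was 1.61. Against the other Ptprc rows, its use differed by 1.89 on the log2 scale, with an adjusted p of 1.0 by edgeR's test of transcript usage. That test called 0.0102% of 29355 transcripts, 0.00681% higher and 0.00341% lower in old, and 5.23% had an unadjusted p under 0.05. On the counts simulated with the spread of these libraries, it recovered 0% of changes of log2 2, and 97.9% of its calls were false. Its missing call is therefore not firm either.

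NM_011210.4, the row that keeps exon 7, held 5.15%, 7.05% and 5.41% of the Ptprc counts in old libraries, against 4.42%, 4.78% and 4.77% in young libraries. Here too the groups did not overlap. The means were 5.87 ± 1.03% in old and 4.65 ± 0.204% in young (SD, n = 3 each), with an exact permutation p of 0.1. By level the row had 15.2, 21.1 and 13.9 FPKM in old libraries, against 14.3, 12.7 and 13.6 FPKM in young libraries, and these overlapped. Its log2 difference was 0.31 ± 0.20 (SE), with an adjusted p of 1.0 by edgeR. Old replicate 2 carried much of both differences: without it the log2 difference was 0.11, and the difference in share was 0.629 percentage points, against 1.22 with all libraries.

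Together the 2 curated rows held 6.82%, 8.64% and 6.56% of the Ptprc counts in old libraries, against 4.63%, 5.14% and 5.38% in young libraries. This sum was chosen after the values of its rows were seen, and its exact permutation p was 0.1. It is not the RO share of the gene. The predicted row XM_006529262.3, whose exon makeup is not given here, held 78.1% to 90.5% of the counts. The full RO share, and its direction with age, therefore cannot be read from these rows. Within the curated rows, the form without exon 7 made up 24.7%, 18.6% and 17.7% of their FPKM in old libraries, against 4.65%, 7.15% and 11.5% in young libraries. The means of that quantity, also chosen after seeing the values, were 20.3 ± 3.83% in old and 7.76 ± 3.45% in young (SD, n = 3 each). Every old library lay above every young one.

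Most Ptprc counts lay on a predicted row. XM_006529262.3 held 88.0%, 78.1% and 87.2% of them in old libraries, against 85.6%, 88.5% and 90.5% in young libraries. The groups overlapped, and old replicate 2 was the lowest of the 6. The means were 84.4 ± 5.51% in old and 88.2 ± 2.46% in young (SD, n = 3 each), with an exact permutation p of 0.4. Its log2 difference in counts was -0.10 ± 0.15 (SE). The ratio of count to FPKM orders the rows by the length RSEM used, and by it this row was the shortest of the 6, at 4922 against 5317 for NM_011210.4 and 5235 for NM_001268286.1. That scale runs above the annotated 4702 and 4611 bases of the curated rows, so only the order is read from it.

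The other 3 predicted rows with counts overlapped between the ages. XM_006529258.3 held 2.31%, 5.99% and 2.14% in old libraries, against 3.81%, 4.49% and 3.02% in young libraries. XM_006529259.3 held 2.9%, 4.75% and 2.23% in old libraries, against 5.04%, 1.01% and 0.778% in young libraries. Single libraries decided the size of the XM_006529259.3 difference, whose log2 value was 0.45 ± 0.83 (SE) with all of them. It was 1.93 without young replicate 1, 0.05 without old replicate 2, 0.07 without young replicate 2 and 0.04 without young replicate 3. XM_006529260.1 was at 0 in old replicate 1 and held 2.53% and 1.83% in the other old libraries, against 0.957%, 0.911% and 0.371% in young libraries. Its log2 difference was 0.92 ± 1.67 (SE) with all libraries and 0.14 without old replicate 2. The exact permutation p-values were 0.9 for XM_006529258.3, 0.6 for XM_006529259.3 and 0.5 for XM_006529260.1.

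**Figure D2:**
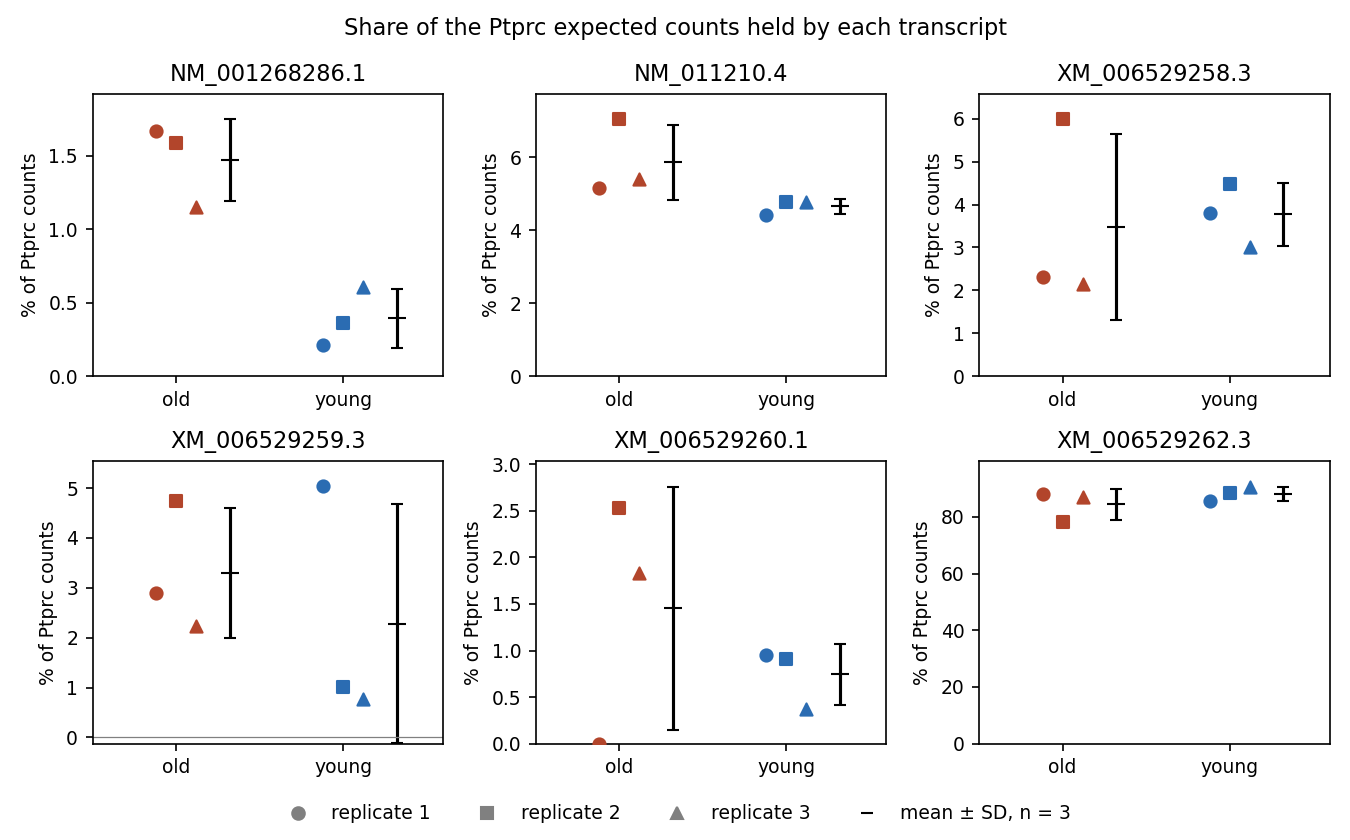
Share of the Ptprc expected counts (percent, vertical axis, a scale of its own in each panel) held by each of the 6 Ptprc rows with counts, by library, with mean ± SD (n = 3). The old points lie above the young points for NM_001268286.1 and NM_011210.4, and the groups overlap for the other rows.

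Shares without overlap were counted against all transcripts. Among the 6 Ptprc rows with counts, 2 had non-overlapping shares, both higher in old. Over all transcripts whose shares were compared, 7.52% did not overlap, with 3.89% higher and 3.63% lower in old. The 95% Wilson intervals of the Ptprc shares reached at most 0.475 percentage points to either side. The intervals cover counting error only and not the division of shared reads.

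Summed levels of T cell state markers did not overlap between the ages either, though few single genes were called. The summed level of 10 genes of antigen-experienced T cells was 540 to 693 CPM in old libraries and 216 to 328 CPM in young libraries. Cd44, an adhesion receptor that stays high on memory T cells, was the 1 member called, where 0.742% of all genes tested were called higher. Cd44 had 186 ± 11.7 CPM in old and 70.9 ± 18.2 CPM in young (SD, n = 3 each), a log2 difference of 1.40 ± 0.21 (SE) with an adjusted p of 0.0368 by edgeR. All 9 tested genes of that list had positive log2 differences, as did 4720 of all 10509 genes tested, with a median of 1.07 over all libraries and 1.28 without young replicate 1. Among 9 genes of naive and quiescent T cells, 0 were called with all libraries, against 0.875% of all genes tested. An unadjusted p under 0.05 by edgeR was found for 4 of them, against 10.6% of all genes tested. All 9 had negative log2 differences, as did 5789 of all 10509 genes tested, with a median of -1.16 over all libraries and -0.32 without young replicate 1. That common sign rested on young replicate 1: without it Il7r was at 1.44, called higher with an adjusted p of 0.0134 by edgeR, and S1pr1 was at 0.44. The naive list summed to 3075 to 3513 CPM in old libraries and 4277 to 8995 CPM in young libraries. Within the young group the orders differed: in replicates 1, 2 and 3 the antigen-experienced sum was 328, 276 and 216 CPM, while the NM_001268286.1 share was 0.211%, 0.361% and 0.610%. Within the old group the orders were the same, with sums of 693, 642 and 540 CPM and shares of 1.67%, 1.59% and 1.15%. The part of these markers in the CD45 shares was not tested.

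Hnrnpll, the inducible regulator of CD45 exon skipping in T cells, was higher in every old library. It had 105, 104 and 102 CPM in old libraries, against 44.5, 76.2 and 76.4 CPM in young libraries. The groups did not overlap, the old libraries lay within 3 CPM of one another, and young replicate 1 was the lowest. The means were 104 ± 1.44 CPM in old and 65.7 ± 18.4 CPM in young (SD, n = 3 each). The log2 difference was 0.66 ± 0.23 (SE), with an unadjusted p of 0.0214 and an adjusted p of 0.331 by edgeR, so it was not called.

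Without young replicate 1 the log2 difference of Hnrnpll was smaller, at 0.44, but its adjusted p was 0.0489 by edgeR, which passed. Over the alternatives tried, the adjusted p ran from 0.0489 to 0.785. In the fit without young replicate 1, 929 of 10509 genes passed, 8.84%, with 5.86% higher and 2.98% lower in old. With all libraries 92 genes passed, 0.875%, with 0.742% higher and 0.133% lower in old. Of the 5 member genes, 0 passed with all libraries, 1 had an unadjusted p under 0.05 by edgeR, as did 10.6% of all genes tested, and the same gene, Hnrnpll, was the 1 whose groups did not overlap. CPM values did not overlap for 16.4% of all genes tested, with 9.90% higher and 6.54% lower in old. DESeq2 called 501 genes, 4.77%.

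Both Hnrnpll rows were higher by FPKM in every old library. The coding row NM_144802.4 had 28.6, 27.7 and 27.9 FPKM in old libraries, against 12.1, 22.9 and 22.3 FPKM in young libraries, a log2 difference of 0.55 ± 0.29 (SE) with an adjusted p of 1.0 by edgeR. The noncoding row XR_001782118.1 had 5.53, 6.00 and 4.40 FPKM in old libraries, against 2.54, 1.74 and 1.52 FPKM in young libraries. Its log2 difference was 1.47 ± 0.33 (SE), with an unadjusted p of 0.00476 and an adjusted p of 0.545 by edgeR and of 0.00206 by DESeq2, whose transcript calls carry the limit given for NM_001268286.1. As a share of the gene's counts it held 17.5%, 19.3% and 14.8% in old libraries, against 18.8%, 7.72% and 7.0% in young libraries, and these overlapped through young replicate 1. Hnrnpll (gene 72692, chromosome 17, 80029487 to 80062268) overlaps Gm22215, Gpx4-ps1 and 4933407O12Rik in the RefSeq annotation, and the sources used here do not say whether strand was used in counting.

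Hnrnpl, Ptbp1 and Sfpq did not pass, and their groups overlapped. Hnrnpl, the constitutive paralogue of Hnrnpll, had 463, 450 and 449 CPM in old libraries, against 415, 534 and 510 CPM in young libraries, and the log2 difference was -0.10 ± 0.16 (SE; adjusted p = 0.91 by edgeR). Ptbp1, the PTB of most tissues, had 875, 939 and 938 CPM in old libraries, against 714, 994 and 746 CPM in young libraries, and the log2 difference was 0.17 ± 0.19 (SE; adjusted p = 0.859 by edgeR). In both genes the old libraries were the more alike, with SDs of 8.02 CPM in old and 62.8 CPM in young for Hnrnpl, and of 36.5 CPM in old and 154 CPM in young for Ptbp1. Sfpq, whose protein also builds nuclear paraspeckles, had 836, 970 and 886 CPM in old libraries, against 762, 947 and 1153 CPM in young libraries, and the log2 difference was -0.09 ± 0.20 (SE; adjusted p = 0.949 by edgeR). Hnrnpl lies on chromosome 7, 28808546 to 28822268, Ptbp1 on chromosome 10, 79854432 to 79864435, and Sfpq on chromosome 4, 127020716 to 127051101.

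**Figure D3:**
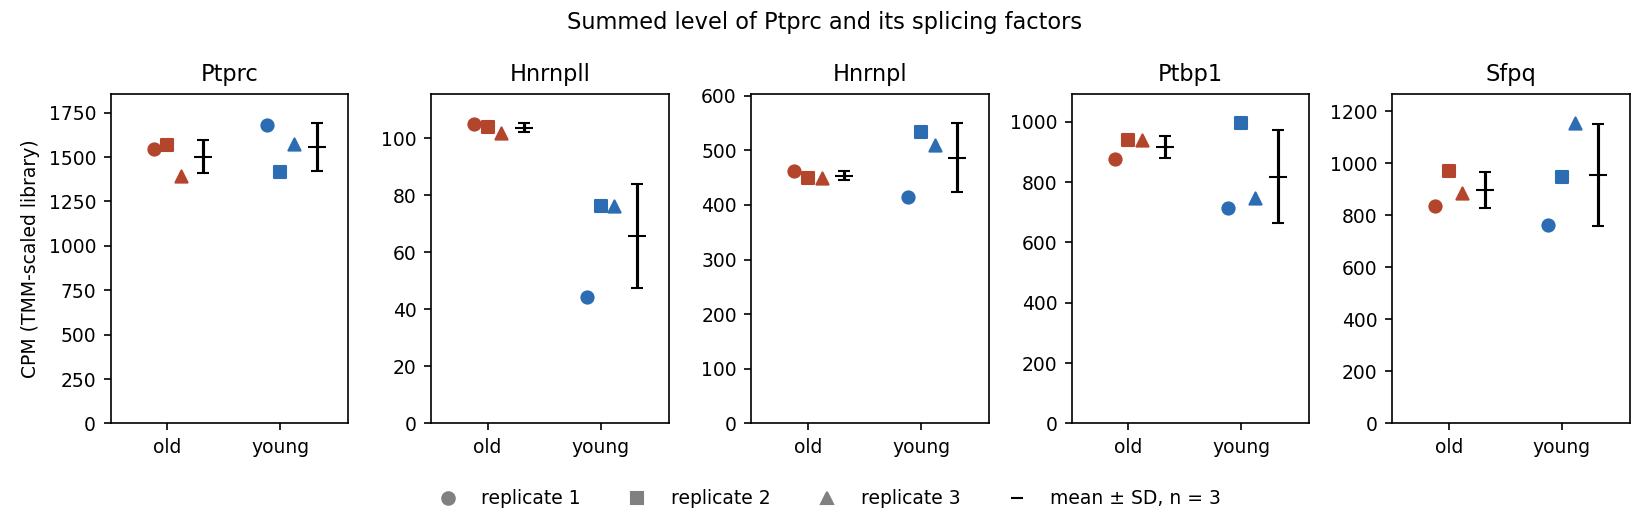
Summed level of each member gene (CPM after TMM scaling, vertical axis, a scale of its own in each panel) by library, with mean ± SD (n = 3). Hnrnpll is the gene whose old points, 102 to 105 CPM, all lie above its young points, 44.5 to 76.4 CPM.

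Per length, Ptprc and Ptbp1 were the most abundant and Hnrnpll the least. In old libraries Ptprc had 304 ± 24.0 FPKM and Ptbp1 298 ± 10.2 FPKM (SD, n = 3 each), which overlapped. Hnrnpl at 211 ± 6.28 FPKM and Sfpq at 209 ± 20.2 FPKM overlapped each other and lay below both, and Hnrnpll had 33.4 ± 0.977 FPKM. In young libraries the order was the same, with Ptprc at 313 ± 31.7, Ptbp1 at 264 ± 50.7, Hnrnpl at 224 ± 25.3, Sfpq at 216 ± 55.4 and Hnrnpll at 21 ± 5.55 FPKM (SD, n = 3 each). There the neighbours among the first 4 overlapped.

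Among the rows of the other factors, the shares of the main rows overlapped between the ages. The main Hnrnpl row NM_177301.5 held 74.3%, 75.6% and 78.7% of the gene's counts in old libraries, against 74.5%, 82.4% and 86.6% in young libraries. The second Hnrnpl row, the predicted XM_006539557.2, held 23.9%, 22.1% and 19.5% in old libraries, against 23.2%, 16.3% and 12.3% in young libraries. In both Hnrnpl rows young replicate 1 lay among the old values and young replicates 2 and 3 outside them. Ptbp1 was divided mainly between 2 curated rows. NM_001077363.2 held 49.1 ± 5.25% in old and 50.3 ± 0.368% in young, and NM_008956.3 held 44.2 ± 6.52% in old and 40.4 ± 2.88% in young (SD, n = 3 each). The third Ptbp1 row by share, NM_001283013.1, held 9.76%, 2.15% and 3.14% in old libraries, against 3.03%, 10.6% and 8.03% in young libraries. For Sfpq the coding row NM_023603.3 held 61.8%, 67.0% and 63.4% in old libraries, against 39.9%, 68.6% and 69.5% in young libraries. The longer noncoding row XR_867890.1 held 25.4%, 23.7% and 26.9% in old libraries, against 42.0%, 21.7% and 20.3% in young libraries. Young replicate 1 was therefore the library with the lowest coding share and the highest noncoding share of Sfpq.

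The share of a minor noncoding Sfpq row did not overlap between the ages, as for 7.52% of all transcripts compared, 3.89% higher in old. XR_867891.2 held 1.24%, 0.767% and 1.53% of the Sfpq counts in old libraries, against 0.418%, 0.623% and 0.501% in young libraries. These shares rest on 192, 138 and 249 expected counts in old libraries and on 55.2, 110 and 100 in young libraries. The log2 difference of the row in counts was 1.09 ± 0.46 (SE), with an unadjusted p of 0.0553 by edgeR, and it was not called. Over the 26 member rows, 22 passed the filter of a mean of 1 FPKM, the others being the 2 Ptprc rows at 0, XM_006539556.1 of Hnrnpl and XR_380379.1 of Ptbp1, and 4 of those that passed had non-overlapping FPKM, all higher in old (1 of Ptprc, 2 of Hnrnpll and 1 of Sfpq), against 11.5% of all transcripts tested without overlap, 6.98% higher and 4.56% lower. By edgeR 0 of the 22 were called, as were 0% of all transcripts tested, and 2 had an unadjusted p under 0.05, against 4.74% of all.

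**Figure D4:**
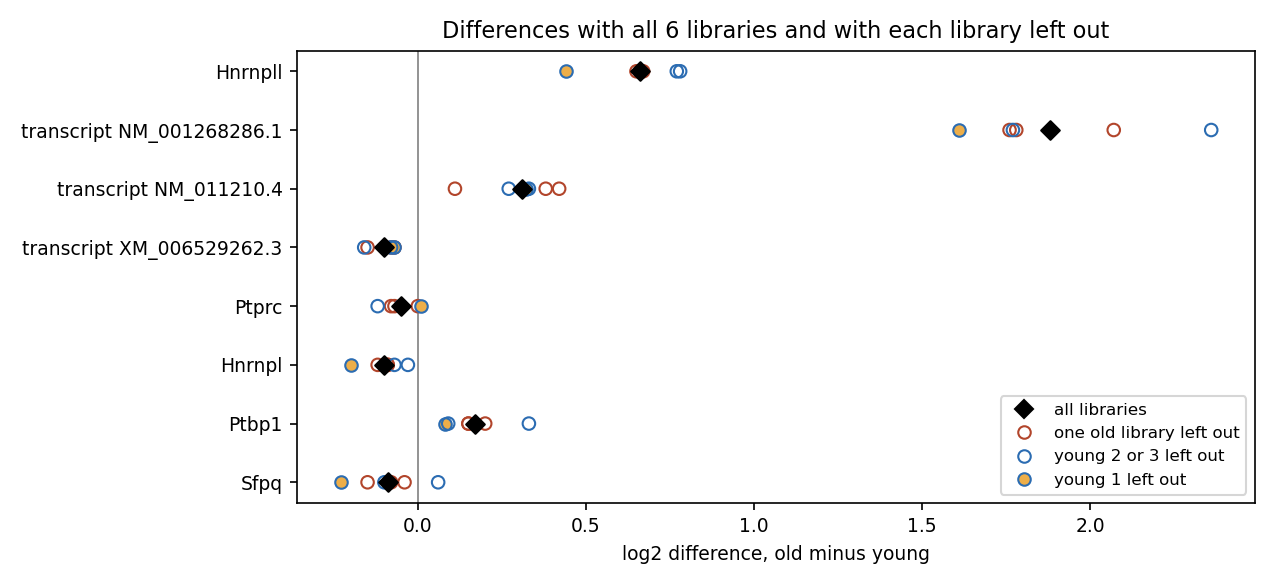
Log2 difference, old minus young, of each member gene and the main Ptprc rows with all libraries (diamonds) and with each library left out in turn (circles). Hnrnpll, NM_001268286.1 and NM_011210.4 stay above 0 in every fit, and without young replicate 1 Hnrnpll is at 0.44.

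In the wider families of splicing factors, no gene was called with all libraries, against 0.875% of all genes tested. Of 23 hnRNP genes tested, 0 were called, and their median log2 difference was -0.03, equal to that of all genes tested. Without young replicate 1 the hnRNP median was -0.14, against 0.01 for all genes. The family ranged from -0.37 for Hnrnpa0 to 0.66 for Hnrnpll. Hnrnpll was also the 1 hnRNP gene called without young replicate 1, where 5.86% of all genes tested were called higher. Of 12 SR protein genes, whose products mostly promote exon inclusion, 0 were called, with a median of -0.05 over all libraries and -0.12 without young replicate 1, and none had an unadjusted p under 0.05 by edgeR. The 4 PTB family genes had a median of 0.08 over all libraries and 0.06 without young replicate 1. The median of the 8 SR protein kinases turned, from -0.05 over all libraries to 0.14 without that library, and so did that of the 8 paraspeckle proteins and Sfpq partners, from -0.07 to 0.02. None of these was called. Among 21 other splicing regulators the median was 0.01, or 0.10 without young replicate 1, and 0 were called with all libraries. One of them, Celf2, a CELF protein that responds to T cell activation in human cells, had a log2 difference of 0.64 ± 0.33 (SE) with all libraries, and of 1.11 with an adjusted p of 0.0134 by edgeR without young replicate 1.

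Of 17 genes whose products act with CD45, 0 were called by edgeR with all libraries, against 0.875% of all genes tested. In this list 7 had an unadjusted p under 0.05 by edgeR, against 10.6% of all genes tested, and 8 had non-overlapping CPM, all higher in old, against 9.90% of all genes tested. Their median log2 difference was 0.23, against -0.03 for all genes tested, and 0.46 without young replicate 1. In that fit 3 were called higher, against 5.86% of all genes tested. Ptpn22, a phosphatase that also acts on Lck, had 521 ± 31.1 CPM in old and 315 ± 35.3 CPM in young (SD, n = 3 each), a log2 difference of 0.73 ± 0.16 (SE; adjusted p = 0.112 by edgeR). Lgals1, a galectin that binds CD45 sugars, differed by 0.86 ± 0.21 (SE) and is also on the antigen-experienced list. Jak3, a cytokine receptor kinase, differed by 0.57 ± 0.16 (SE), and Cd2, an adhesion receptor, by 0.55 ± 0.16 (SE). The CD45 substrate Lck had 496 ± 32.4 CPM in old and 480 ± 80.3 CPM in young (SD, n = 3 each), with a log2 difference of 0.05 ± 0.18 (SE). Fyn, the other substrate kinase named above, had 561 ± 10.3 CPM in old and 480 ± 13.5 CPM in young (SD, n = 3 each). Its groups did not overlap, and the log2 difference was 0.23 ± 0.14 (SE; adjusted p = 0.691 by edgeR).

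**Figure D5:**
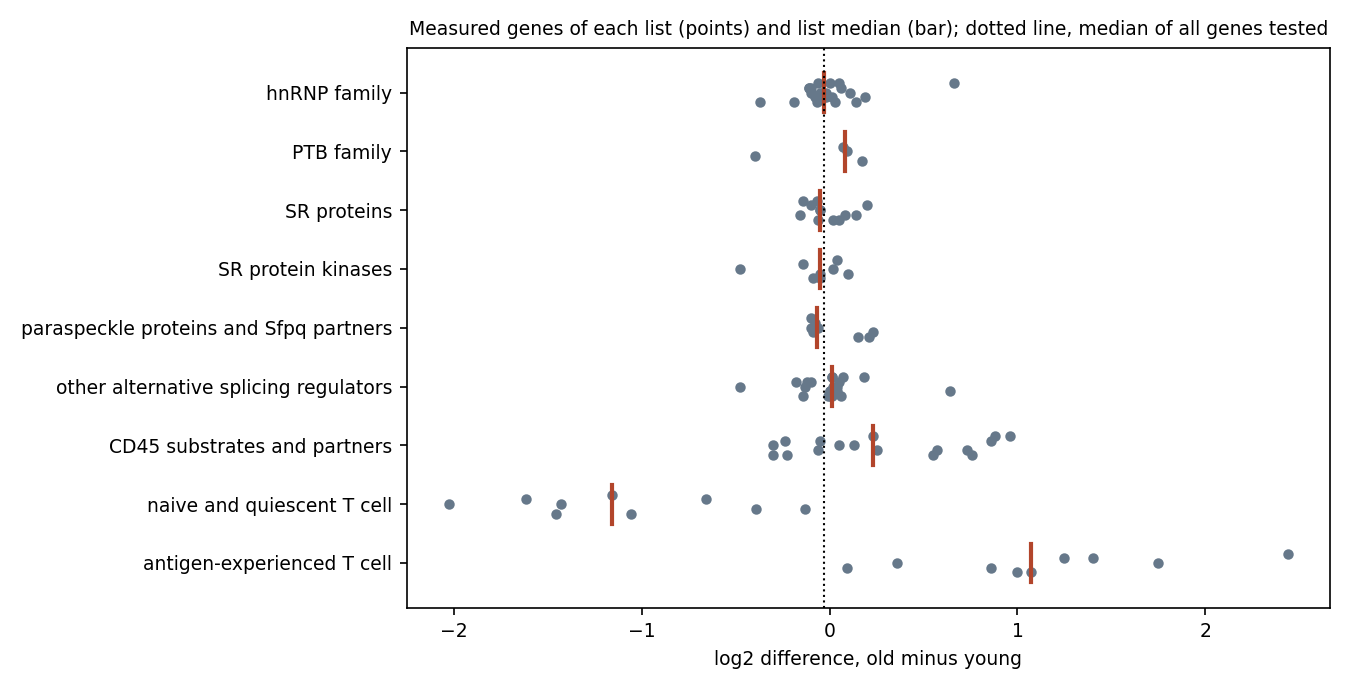
Log2 difference, old minus young, of each tested gene (points) in lists of splicing factors, CD45 partners and T cell state markers, with the list median (bar) and the median of all genes tested (dotted line, -0.03). The splicing lists centre near the dotted line, CD45 partners at 0.23, the naive markers at -1.16 and the antigen-experienced markers at 1.07.

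The 2 genes with the synonym Psf1 did not pass either. Gins1 had 6.19, 5.32 and 4.30 CPM in old libraries, against 2.19, 7.76 and 7.99 CPM in young libraries, and Tap1 had 526, 478 and 582 CPM in old libraries, against 634, 432 and 461 CPM in young libraries. The log2 differences were -0.18 ± 0.48 (SE) for Gins1 and 0.06 ± 0.20 (SE) for Tap1.

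The genes most like Ptprc in log2 CPM over the 6 libraries were Bbof1 (r = 0.989), Arhgap30 (r = 0.986), Cd46 (r = 0.985), Zfp12 (r = 0.981) and Gm4791 (r = 0.981). Those most like Hnrnpll were Alcam (r = 0.997), Trim8 (r = 0.994), Pura (r = 0.993), Got1 (r = 0.990) and Tspan5 (r = 0.989). These are the 5 highest of 10509 genes for each, over only 6 libraries that share young replicate 1 as an extreme, and are given as a description.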

How the data were processed

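RNA of CD4+ T cells was sequenced by the submitters, and Bowtie and RSEM and the build GRCm38 (mm10) are named per the submitters' processing notes. The sources used here give neither versions nor the use of strand. The deposited table holds, for 66712 RefSeq transcripts, the authors' expected counts and the authors' FPKM, in 6 libraries. Of its genes, 147 had no symbol in the RefSeq table, with at most 0.211% of a library's counts. Expected counts were rounded to whole numbers for edgeR 4.0.16 (main test, TMM factors, quasi-likelihood) and DESeq2 1.42.0, fitted over all genes or transcripts with a mean FPKM of at least 1. Transcript usage was tested with edgeR over 29355 transcripts, and shares with a two-sided exact permutation test. limma 3.58.1 was used on log2(FPKM + 1) and log2(FPKM + 0.1). A call is an adjusted p under 0.05. Scripts were tested on simulated data. At the spread of these libraries the transcript fit of edgeR recovered 0% of changes of log2 2. DESeq2 recovered 49% of these in transcripts, and 69.1% of its transcript calls were false. The usage test of edgeR recovered 0%, with 97.9% of its calls false. limma diffSplice on voom values recovered 5.1%, with 79.1% of its calls false. At that spread the gene fit of edgeR recovered 18.9% of changes of log2 1 and 94.5% of changes of log2 2. Of the DESeq2 gene calls there, 20.9% were false. A gene that was not called may therefore still differ. Exon sequences came from GENCODE M21 and gene positions and names from RefSeq, both on GRCm38. The members and lists were chosen with earlier results of these data known. Named genes were all members, called genes, up to 4 of smallest p per list, and the 5 genes most like Ptprc and Hnrnpll. Beside them Lck, Fyn and the listed extremes were named after their values were seen. CPM were computed with TMM scaling.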

Additional observations from a re-analysis of the deposited data

How the results depend on the processing

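With other processing the count of genes called moved from 92 to 501 with DESeq2, 203 with no filter and 55 with a mean FPKM of at least 5, and leaving out single libraries gave 0 to 929. The count of 0 transcripts called became 322 with DESeq2, and the 3 of 29355 transcripts called in usage (0.0102%) became 1 with limma diffSplice on voom values, 0 with a replicate block and 3 to 13 with single libraries left out. Same-numbered old and young libraries deviated together at r = 0.231, -0.023 and 0.196, and the other pairs at -0.341 to 0.355. Each deviation is from a mean of only 3 libraries, so these values cannot decide whether replicate numbers pair the libraries. The replicate block gave 119 genes and 0 transcripts called. Some directions turned. With single libraries left out, Ptprc ran from -0.12 to 0.00854, the last without young replicate 1. Gins1 was 0.00723 and 0.04 with limma at pseudocounts of 1 and 0.1, and 0.05 and 0.07 without young replicates 2 and 3, with a lowest value of -0.58 without young replicate 1. Tap1 was -0.02 without old replicate 3 and -0.05 and -0.02 without young replicates 2 and 3, and at most 0.25. Sfpq was 0.06 without young replicate 3 and at lowest -0.23. XM_006529258.3 was 0.10 and 0.17 without old replicates 1 and 3 and -0.82 without old replicate 2, and XM_006529260.1, at 0.92 by edgeR with all libraries, was -0.47 with limma at 0.1. The cause was not tested. Hnrnpll stayed between 0.44 and 0.78 and NM_001268286.1 between 1.30 and 2.36, with adjusted p-values of 0.0489 to 0.785 and 0.0356 to 1.0 by the tools named. NM_001268286.1 and XM_006529260.1 fall below a mean of 5 FPKM and have no value there.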
